A study of Homo sapiens with 30 samples.

Results

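The comparison described here is that of U2932 cells given YK-S with U2932 cells given DMSO, the solvent, at 8 h. It used 6 of the 30 arrays of the series: the 3 arrays labelled U2932, YK-S, 8 h and the 3 labelled U2932, DMSO, 8 h in the deposited table of log2 values, taken by that table's own column names. Gene expression was measured on Illumina human bead arrays in the cell lines TMD8 and U2932, both from diffuse large B cell lymphoma of the ABC (activated B cell-like) type. The U2932 arrays numbered 18 and the TMD8 arrays 12. U2932 was given DMSO, YK-R or YK-S for 4 h or 8 h, and TMD8 was given YK-R or YK-S for the same times, with 3 arrays for each of the 10 groups. YK-S and YK-R are taken here as the S and R mirror images of the ETS inhibitor that the series is about, the S form being known as the active one. No dose is labelled, nor is it said whether arrays of 1 group stem from different cultures, and the p-values may thus reflect technical spread alone.

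ETS factors bind a short DNA core and turn on genes of growth and cell identity. SPIB, a member of the family found in B cells, acts with IRF4 in lymphoma of the ABC type. Small nucleolar RNAs (snoRNAs) are short non-coding RNAs of the nucleolus: those of the C/D box class guide methylation of ribosomal RNA and those of the H/ACA box class guide its pseudouridylation. Most human snoRNAs are cut from the introns of other genes, many of which encode ribosomal proteins or translation factors, and the rest of the host transcript is spliced separately.

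A second deposited table holds unnormalized signals of the same arrays under other names. Matched by their ranking of the probes (rank correlations of at least 0.999996), all U2932 columns paired up across the tables, but under differing names. Of the 6 arrays compared, 2 carried the same group in both tables, namely DMSO replicate 1 and YK-S replicate 2. A difference that rests on these arrays recurs under both names by construction and is no independent support. In the signal table YK-S replicates 1 and 3 are named YK-R and DMSO, both at 8 h, and DMSO replicates 2 and 3 are named YK-R and YK-S, both at 8 h. The groups that the signal table itself names YK-S and DMSO at 8 h hold 4 of the 6 arrays and 2 others, which the log2 table names YK-R replicate 2 at 8 h and YK-R replicate 1 at 4 h, so by the log2 table's names that reading also mixes times. MYC measured 8 to 8.78 on all arrays that the log2 table names 4 h and 7.21 to 7.79 on all it names 8 h. JUND and BNIP3L split the arrays alike. On the arrays that the signal table names DMSO replicate 1 at 8 h and DMSO replicate 3 at 4 h, MYC measured 8.36 and 7.48. These genes were chosen after their values were seen, and they bear on the times only. Which treatment names are right cannot be told from the files, so values under the signal table's names, after quantile normalization, are given beside the main results. That normalization returned the deposited log2 values to within 0.00553. YK-S replicate 2 was the only dim array among the 6, with a mean signal of 183.2 against 267.7 to 340.9 and with 35% of probes above background against 44% to 48.9%. Its rank correlation with the other 5 arrays was 0.927 to 0.934, whereas each of those reached 0.968 to 0.972 with at least 1 other. The B cell markers BLK, CD22, CD74, CD79A, CD79B and MS4A1 lay above background on all 6 arrays and PAX5 on none. On all 6 arrays 0 of 12 T cell markers, 2 of 10 myeloid markers (CD14 and FCGR3A) and 1 of 13 stromal and epithelial markers (EPCAM) lay above background. The mean log2 level of the T cell markers was 6.36 to 6.38 with YK-S and 6.35 to 6.36 with DMSO, that of the myeloid markers 6.41 to 6.45 and 6.44 to 6.46, and that of the B cell markers 9.25 to 9.5 and 9.16 to 9.19.

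No feature passed the test. Among 16944 features (11152 named genes and 5792 probes without a gene name), 0 reached a limma adjusted p under 0.05, which is 0% of those tested, and the lowest adjusted p was 1. At an unadjusted p under 0.05 there were 160 features, 90 higher with YK-S (0.531%) and 70 lower (0.413%), where chance would give 847. The fit pooled its residual spread over all 18 U2932 arrays, of which 8 were dim, 1 of these among the 6 compared. Fitted to only the 6 arrays compared, 343 features passed that limit where chance would give 768, and 0 were called. Small p-values were thus rarer than chance in both fits, and the lack of calls does not show that nothing changed. Whether the pooling lowered the count was not tested. All 3 YK-S arrays lay above all 3 DMSO arrays for 637 features (3.76%) and below them for 857 (5.06%). The median log2 difference was -0.0162, with 42.9% of features above 0, and the 95% interval of a difference extended by a median of 0.29 log2 each way. Under the signal table's names limma called 0 of 17394 features (0%), and 540 passed 0.05 before adjustment where chance would give 870. All the differences below are therefore descriptions of these 6 arrays, and none of the genes named is called as changed.

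The 3 features with the largest increases, named or not, were the snoRNAs SNORD46, SNORD13 and SNORD74. Of the 90 features higher with YK-S at an unadjusted p under 0.05, 19 were snoRNAs, 12 of the C/D box class and 7 of the H/ACA box class, and no snoRNA was lower at that limit. That was 13.6% of the 88 C/D box snoRNAs tested and 10.4% of the 67 H/ACA box snoRNAs, beside 0.531% of all features. Over the whole classes the medians were close to that of all features: the median log2 difference was 0.0183 over the C/D box snoRNAs (50 of 88 above 0) and -0.0139 over the H/ACA box snoRNAs (28 of 67 above 0). All 3 YK-S arrays lay above all DMSO arrays for 19 C/D box and 11 H/ACA box snoRNAs, beside 3.76% of all features, and below them for 4 and 7, beside 5.06%. None of the 19 snoRNAs with an unadjusted p under 0.05 separated the groups by the signal table's names, and 3 of 153 snoRNAs were then higher at that limit, beside 0.943% of all features. The medians there were 0.0336 for C/D box snoRNAs (54 of 87 above 0) and -0.017 for H/ACA box snoRNAs (26 of 66 above 0), with 5 and 4 separating the groups from above (4.75% of all features) and 2 and 5 from below (7.28%). Whether these probes detect the processed snoRNA or its precursor was not tested.

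SNORD46, a C/D box snoRNA, had the largest difference of the named genes. Its log2 values were 7.64, 9.07 and 9.27 on YK-S replicates 1, 2 and 3, and 6.86, 6.82 and 7.03 on the DMSO arrays. The YK-R arrays at 8 h measured 7.15, 6.91 and 7.02. The DMSO and YK-R arrays thus overlapped, every YK-S array lay above both, and YK-S replicate 1 stood well below the other YK-S arrays. The mean was 8.66 ± 0.888 log2 with YK-S and 6.90 ± 0.11 with DMSO (SD, n = 3 each), a difference of 1.76 (SE 0.40, 95% interval 0.90 to 2.62, limma adjusted p = 1) or 3.39-fold. Under the signal table's names the 3 highest of these arrays fall in 3 groups: the value of 9.27 belongs to DMSO, 9.07 to YK-S and 7.64 to YK-R. The difference there was -0.28 (SE 0.66, limma adjusted p = 1), with the groups overlapping.

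SNORD13, which guides an acetylation of the small-subunit ribosomal RNA and has a gene of its own, showed the same order of the YK-S arrays. It measured 8.73, 10.03 and 10.32 on the YK-S arrays against 8.17, 8.26 and 8.22 on the DMSO arrays, and 7.78, 8.27 and 8.48 with YK-R. The YK-S arrays did not overlap either of the other groups. The difference from DMSO was 1.48 (SE 0.58) and under the signal table's names -0.15. SNORD18A, held in RPL4, measured 6.72, 7.25 and 7.74 with YK-S and 6.44, 6.59 and 6.48 with DMSO, close to the background limit of 6.44, and differed by 0.73 (SE 0.17). By the signal table's names its difference was -0.13. SNORD74, held in the non-coding gene GAS5, measured 6.79, 8.68 and 8.04 with YK-S against 6.67, 6.85 and 6.74 with DMSO. YK-S replicate 1 fell among the DMSO arrays, and the mean difference was 1.08 (SE 0.31), or 0.29 under the signal table's names.

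Other snoRNAs among the largest differences had the same pattern of a low YK-S replicate 1. SNORD2 (difference 0.44), SNORA4 (0.53) and SNORA63 (0.59) are all held in EIF4A2, the gene of a translation initiation helicase. SNORA63 measured 8.26, 8.59 and 8.98 with YK-S and 8.14, 8.10 and 7.82 with DMSO, and SNORA4 measured 7.5, 7.99 and 7.80 against 7.34, 7.29 and 7.08. Both separated the groups, but under the signal table's names they were at -0.24 and 0.02, with overlap, and SNORD2 was at 0.14. SNORD21, held in RPL5, differed by 0.55 and SNORD87, held in SNHG6, by 0.53, and these were -0.12 and 0.06 under the signal table's names. SNORD38B, also of the C/D box class, lay above background on all 3 YK-S arrays and on no DMSO array, and was at least 1.3-fold higher with YK-S than the background level. Its YK-R arrays, at 6.70, 6.47 and 6.5, also exceeded the limit of 6.44 and overlapped the YK-S arrays, at 6.53, 7.19 and 6.74, so YK-S minus YK-R was 0.26. By the signal table's names YK-S minus DMSO was 0.16 for SNORD38B, with overlap.

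**Figure D1:**
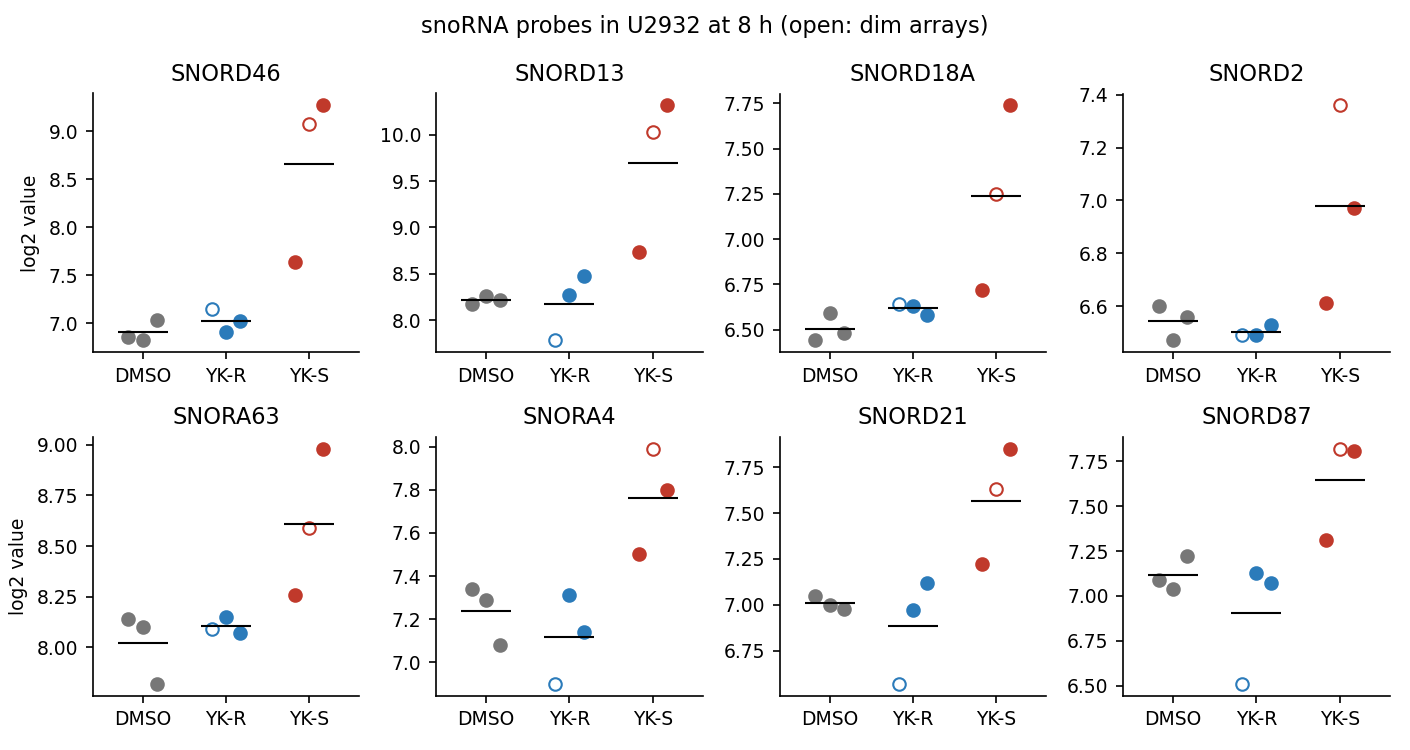
Log2 values of 8 snoRNA probes on the 9 U2932 arrays at 8 h, by the log2 table's names; each point is 1 array, lines are group means and open points are the dim arrays YK-R replicate 1 and YK-S replicate 2. In all 8 panels the 3 YK-S arrays lie above the 3 DMSO arrays, and YK-S replicate 1 is the lowest of the 3; the vertical scales differ.

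Leaving out the dim array YK-S replicate 2 left SNORD46 at 1.56, SNORD13 at 1.31, SNORD18A at 0.73 and SNORA63 at 0.60. SNORD2 and SNORD38B moved more, to 0.24 and 0.25. Leaving out YK-S replicate 1 instead gave 2.27 for SNORD46, 1.96 for SNORD13 and 0.99 for SNORD18A, and limma then called 2 features, SNORD18A and SNORD74. With all 6 arrays neither was called.

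The TMD8 arrays, which share no array with U2932 and carry the same names in both tables, were used to ask how the snoRNAs behaved in the other line. No TMD8 array is labelled DMSO, so the contrast used at 8 h was YK-S minus YK-R. A fit of TMD8 alone called 8 features as higher with YK-S at a limma adjusted p under 0.05 (0.0324% of 24684), and all 8 were C/D box snoRNAs. A list of 12 C/D box snoRNAs called in an earlier fit of TMD8 was followed in U2932, where 11 could be tested and SNORD105 could not. All 11 lay above 0 in YK-S minus DMSO at 8 h, with a median of 0.433, 7 had an unadjusted p under 0.05, beside 0.531% of all features, and 8 separated the groups, beside 3.76%. A probe was kept if above background in only 1 group, which can favour members high with YK-S. SNORD38B was above background on 0 DMSO arrays and SNORD117 on 1, and both on 3 YK-S arrays. Without that filter the list median was 0.38. With the arrays grouped by the signal table's names 3 of 10 lay above 0, the median was -0.0278 and 0 separated the groups (4.75% of all features did from above). Without YK-S replicate 2 the median was 0.245. The list median on each array, relative to the DMSO mean, was 0.083, 0.748 and 0.468 on YK-S replicates 1 to 3, and between -0.053 and 0.046 on the DMSO and YK-R arrays. SNORD68, held in RPL13, illustrates a member with overlap, at 8.35, 9.37 and 9.20 with YK-S and 8.01, 8.18 and 8.47 with DMSO (difference 0.76, and 0.31 by the signal table's names). The smallest difference on the list was that of SNORD117, 0.10, with values of 6.53, 6.53 and 6.61 against 6.43, 6.44 and 6.48.

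With YK-R the list lay close to DMSO. YK-R minus DMSO at 8 h had a median of 0.0106 over the 11 snoRNAs, with 6 above 0 and 1 separating the groups from above, beside 4.41% of all features (6.25% from below). YK-S minus YK-R had a median of 0.317, with 11 of 11 above 0. These contrasts share arrays with YK-S minus DMSO and are given only side by side. For SNORD46 YK-S minus YK-R was 1.64, for SNORD13 1.52 and for SNORD18A 0.62. Across all features limma called 0% in YK-S minus YK-R, so the mirror-image forms could not be told apart for any single feature at an interval of 0.29 log2 to either side.

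At 4 h, on other arrays of which several were dim, YK-S minus DMSO had a median of 0.177 over the list, with 9 of 11 above 0. SNORD46 measured 7.83, 8.29 and 8.35 with YK-S at 4 h and 6.98, 7.67 and 6.64 with DMSO, a difference of 1.06 (limma adjusted p = 0.344). For YK-S and DMSO at 4 h alike, replicates 2 and 3 were dim, which leaves 7.83 and 6.98 on the arrays that were not. Among the YK-R arrays at 4 h, SNORD46 measured 7.71 on replicate 1, the only one not dim. On the dim YK-R replicate 2 it measured 8.79, above all YK-S arrays of that time. The difference between the YK-S effects at 8 h and 4 h was called for 0% of features.

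Over the 153 snoRNAs tested in both lines, the U2932 difference followed the TMD8 difference with Pearson's r of 0.752 and Spearman's rho of 0.693. With the arrays named as in the signal table these were -0.0691 and -0.0591. Over the 87 C/D box snoRNAs alone r was 0.772, and for YK-R minus DMSO in U2932 it was 0.115. Over the 15972 other features tested in both lines r was 0.0184. These correlations run across snoRNAs that share the arrays of a line, and some share a host transcript, so the points are not independent. Of 24 snoRNAs with a TMD8 difference of at least 1 log2, 24 lay above 0 in U2932 with a median of 0.32, and 14 separated the groups, beside 3.76% of all features. Of the other 129, 49 lay above 0, with a median of -0.02. Of the 24, 10 lay above 0 by the signal table's names, with a median of 0, and 0 separated the groups (4.75% of all features did from above). The split at 1 log2 was chosen after the values had been seen.

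**Figure D2:**
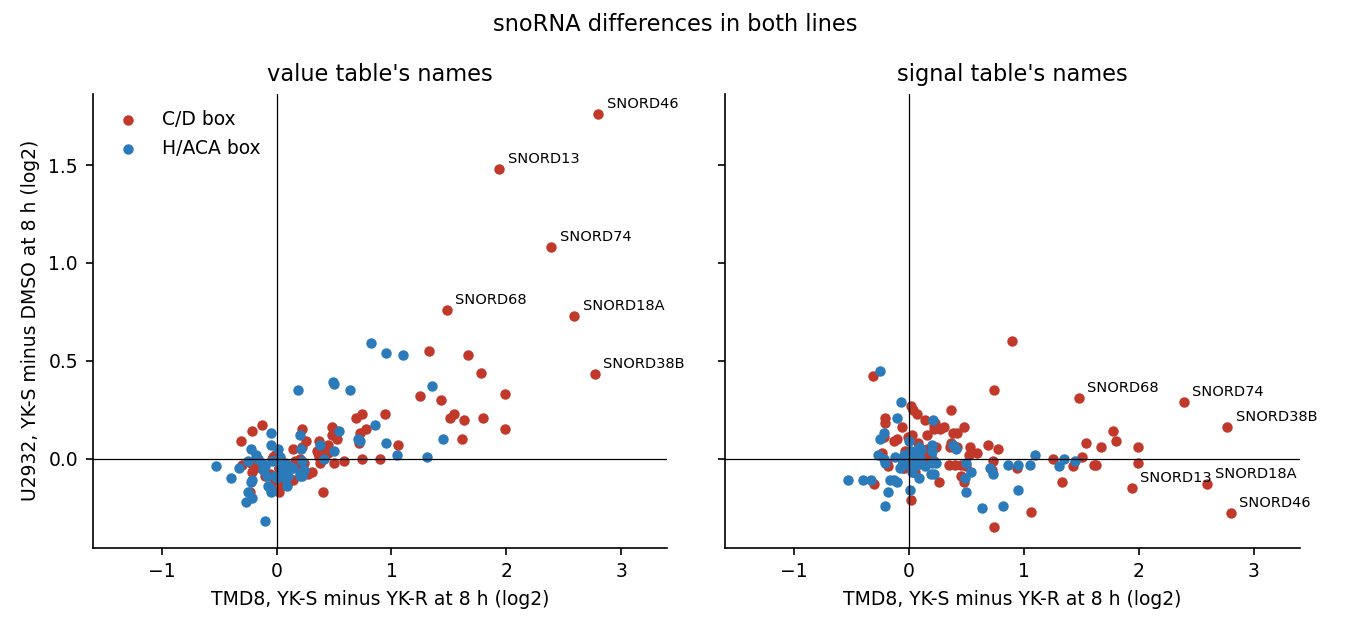
Log2 difference of each of 153 snoRNAs in U2932 (YK-S minus DMSO, vertical) against TMD8 (YK-S minus YK-R, horizontal) at 8 h, with the U2932 arrays grouped by the log2 table's names (left) or the signal table's names (right); red points are C/D box and blue points H/ACA box snoRNAs. On the left the snoRNAs with large TMD8 differences lie highest (r = 0.752), and on the right they lie around 0 (r = -0.0691).

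The genes that hold these snoRNAs had differences around or below 0. Of the 19 snoRNAs with an unadjusted p under 0.05, 15 lie in a gene that was itself tested, 13 genes in all. The host differences ran from -0.28 to 0.10 with a median of -0.10, and 0 of the hosts had an unadjusted p under 0.05. No host separated the groups from above (3.76% of all features did) and 2 did from below (5.06%). RPL4, the host of SNORD18A, was at -0.14 (SE 0.21), GAS5 at -0.04 (SE 0.15), RPL13 at -0.14 (SE 0.17) and EIF4A2 at 0.06 (SE 0.13). RPL5, the host of SNORD21, was at -0.20 (SE 0.14) and was 1 of the 2 that lay below on every YK-S array. By the signal table's names these hosts were at -0.22 (RPL4), 0.02 (GAS5), 0.08 (RPL13), -0.10 (EIF4A2) and 0.02 (RPL5). The 75 cytosolic ribosomal protein genes tested had a median of -0.00634 and the 17 non-coding host genes a median of 0.00989, which were 0.038 and 0.0771 by the signal table's names.

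**Figure D3:**
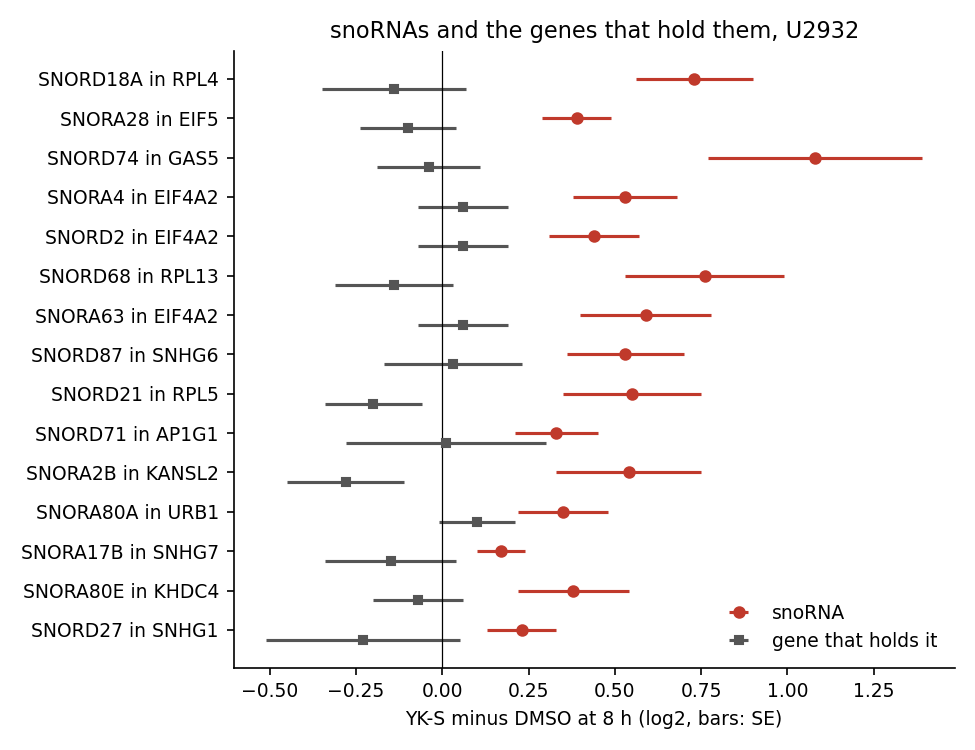
Log2 difference (YK-S minus DMSO at 8 h, bars are SE of the limma fit) of 15 snoRNAs with an unadjusted p under 0.05, in red, and of the gene that holds each, in grey. All the red points lie above 0, as they were chosen to differ, and the host genes lie between -0.28 and 0.10.

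Genes of mitosis and the spindle lay higher with YK-S as a list. All 66 members were tested, 51 lay above 0, and the median difference was 0.126, beside -0.0162 for all features. Of these, 4 had an unadjusted p under 0.05 from above (6.06%, beside 0.531%) and none from below, and 15 separated the groups from above (22.7%, beside 3.76%) and none from below. The list median on each array was 0.061, 0.232 and 0.143 on YK-S replicates 1 to 3, and 0.003, 0.014 and -0.015 on the DMSO arrays, so the groups did not overlap. On the YK-R arrays it was 0.008, -0.031 and -0.015. The dim array YK-S replicate 2 had the highest list median, and without it the median difference was 0.0917. At 4 h the median was 0.0255. On bulk arrays a larger share of cells in mitosis and more of these RNAs per cell cannot be told apart.

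PRC1, which bundles the microtubules of the central spindle, varied little within the groups, at 10, 10.02 and 10.03 with YK-S and 9.78, 9.81 and 9.71 with DMSO. Every YK-S array lay above every DMSO array, and the YK-R arrays, at 9.89, 9.57 and 9.84, lay around DMSO and below YK-S. The difference was 0.25 (SE 0.10, limma adjusted p = 1). BUB1B, a kinase-like protein of the spindle checkpoint, measured 8.18, 8.67 and 8.02 against 7.96, 7.88 and 7.78, a difference of 0.42 (SE 0.18). FOXM1, a transcription factor of late cell cycle genes, measured 7.36, 7.83 and 7.44 against 7.24, 7.14 and 7.16, a difference of 0.37 (SE 0.15). CDC25B, a phosphatase that activates CDK1, was at 8.31, 8.91 and 8.65 against 8.12, 8.25 and 8.34, where YK-S replicate 1 overlapped DMSO. Without YK-S replicate 2 PRC1 stayed at 0.25, whereas BUB1B was at 0.23, FOXM1 at 0.22 and CDC25B, from 0.39, at 0.24. The Aurora kinases AURKA and AURKB were both at 0.28, SGO2, a protector of cohesion at centromeres, at 0.50, and CCNB1, the mitotic cyclin, at 0.33, the last with overlap. Not all members went this way: CDK1 was at -0.24, KPNA2, a nuclear import factor, at -0.22 and CDC20, an activator of the anaphase-promoting complex, at -0.19, each with overlapping groups.

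With the signal table's names, 43 of the 66 lay above 0 with a median of 0.0714, but 0 separated the groups from above (4.75% of all features did) and 1 from below (7.28%). PRC1 was then at 0.07, CDC25B at 0.29, BUB1B at 0.32, FOXM1 at 0.22 and SGO2 at 0.38. AURKA was at -0.07, AURKB at 0.15, CCNB1 at 0.25, CDK1 at 0.08, KPNA2 at 0.18 and CDC20 at -0.05, so the sign turned for AURKA, CDK1 and KPNA2. The YK-S array that both tables name alike, replicate 2, is also the one with the highest list median. In TMD8 YK-S minus YK-R at 8 h had a median of 0.165 over 64 members, with 59 above 0. No median over all TMD8 features is given to set beside it. YK-S minus YK-R in U2932 had a median of 0.131 with 51 above 0, beside 0.00371 and 51.2% for all features. YK-R minus DMSO had a median of -0.0198 with 29 above 0, beside -0.0186 and 42.8% for all features. The U2932 contrasts share arrays.

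The promoters of the mitosis genes share sequence letters that the list was not chosen by. Promoters of 300 bases, mostly upstream of the start of the gene, were taken from RefSeq on GRCh38.p14 and were found for 56 of the 66 genes. The cell cycle homology region (CHR, searched as TTTGAA or TTTAAA on both strands) was found in 45 of them (80.4%), beside 24.3% of all 27305 promoters and 16.7% of those of genes tested here. The CCAAT box (CCAAT, both strands) was in 42 (75%), beside 35.7% of all promoters, and both motifs in 36 (64.3%), beside 9.49%. An ETS core with its flanks (CCGGAAG, both strands) was in 12 (21.4%), beside 10.7% of all promoters and 19.9% of those of genes tested. Of the 46 promoters found for the replication list, the CHR was in 8.7%, the CCAAT box in 58.7% and both in 4.35%. Of the 15 mitosis members that separated the groups, 11 had a promoter in the table, with the CHR in 7, the CCAAT box in 8 and both motifs in 4. The shares with the CHR and with both motifs were lower than over the whole mitosis list, and that with the CCAAT box was close to it. In these few promoters the motifs thus did not mark the members that separated the groups. The 4 promoters with both motifs are shown, with the motifs in capitals, in front of genes whose YK-S arrays all lay above DMSO. A match is a description of the letters, not of a bound site.
PRC1, chr15:90994486-90994785, minus strand: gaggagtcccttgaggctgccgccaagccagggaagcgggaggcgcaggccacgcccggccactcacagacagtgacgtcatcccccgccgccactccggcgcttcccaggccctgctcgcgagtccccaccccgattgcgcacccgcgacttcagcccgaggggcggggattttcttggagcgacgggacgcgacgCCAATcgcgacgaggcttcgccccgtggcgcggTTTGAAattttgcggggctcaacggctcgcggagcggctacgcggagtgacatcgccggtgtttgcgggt
SGO2, chr2:200525892-200526191, plus strand: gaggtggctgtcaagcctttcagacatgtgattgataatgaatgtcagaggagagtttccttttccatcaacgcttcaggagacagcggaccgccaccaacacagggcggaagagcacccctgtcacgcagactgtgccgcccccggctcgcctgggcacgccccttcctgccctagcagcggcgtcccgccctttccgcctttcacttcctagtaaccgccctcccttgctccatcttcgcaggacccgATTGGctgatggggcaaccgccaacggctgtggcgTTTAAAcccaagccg
KIF4A, chrX:70289854-70290153, plus strand: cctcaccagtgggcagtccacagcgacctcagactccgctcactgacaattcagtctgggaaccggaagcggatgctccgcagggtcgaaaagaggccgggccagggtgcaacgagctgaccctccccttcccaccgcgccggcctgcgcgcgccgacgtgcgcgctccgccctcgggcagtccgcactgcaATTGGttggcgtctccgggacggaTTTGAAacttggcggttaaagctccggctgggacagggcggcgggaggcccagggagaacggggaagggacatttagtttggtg
INCENP, chr11:62123761-62124060, plus strand: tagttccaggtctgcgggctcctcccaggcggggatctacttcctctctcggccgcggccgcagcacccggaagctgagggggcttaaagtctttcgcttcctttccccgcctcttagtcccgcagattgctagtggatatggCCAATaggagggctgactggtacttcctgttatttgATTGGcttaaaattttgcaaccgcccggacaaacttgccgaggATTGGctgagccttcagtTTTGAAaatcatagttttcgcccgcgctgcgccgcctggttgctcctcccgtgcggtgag

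Genes of DNA replication had a median below that of all features, a smaller shift than for mitosis and one that depended more on 1 array. Of 52 tested, 22 lay above 0 (42.3%), much the same share as the 42.9% of all features. The median was -0.0773, beside -0.0162 for all features. Of these, 4 had an unadjusted p under 0.05 from below (7.69%, beside 0.413%) and none from above, and 6 separated the groups from below (11.5%, beside 5.06%) and none from above. GINS2, a subunit of the replicative helicase, measured 10.13, 9.46 and 9.94 with YK-S and 10.47, 10.31 and 10.29 with DMSO, a difference of -0.51 (SE 0.17, limma adjusted p = 1). ORC6, of the origin recognition complex, was at 13.31, 13.18 and 13.43 against 13.68, 13.63 and 13.54, a difference of -0.31 on the probe used and of 0.02 on its other probe. Both separated the groups, as did MCM3, a helicase subunit, at -0.26 (-0.08 on its other probe), whereas POLA2, of DNA polymerase alpha, was at -0.42 with overlap. The per-array list medians overlapped, at 0.035, -0.068 and -0.045 with YK-S and 0.046, -0.016 and -0.066 with DMSO. Without YK-S replicate 2 the list median was -0.00349, with GINS2 at -0.32 and POLA2 at -0.17. By the signal table's names the list median was -0.0638, GINS2 was at -0.43, POLA2 at -0.58, ORC6 at -0.18 and MCM3 at -0.08, and 3 members separated the groups from below (7.28% of all features did). At 4 h GINS2 was at 0.41.

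**Figure D4:**
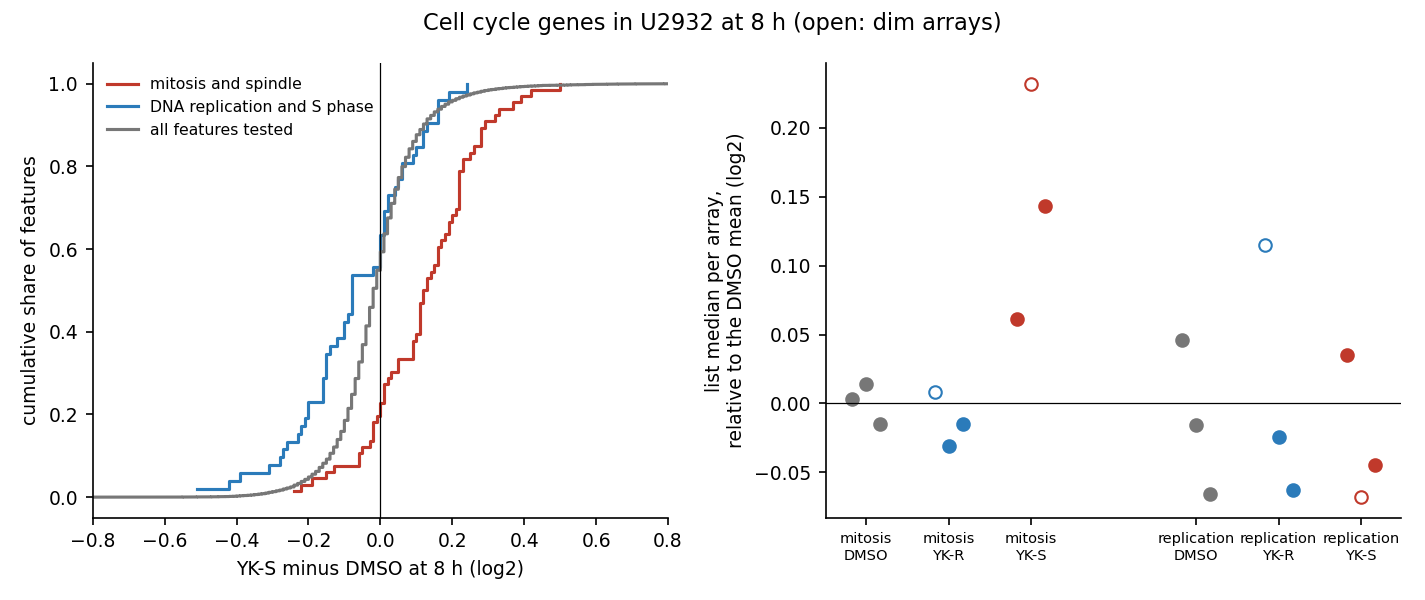
Left: cumulative share of features (vertical) by log2 difference, YK-S minus DMSO at 8 h (horizontal), for the mitosis list, the DNA replication list and all features tested. Right: the median of each list on each of the 9 arrays at 8 h relative to the DMSO mean (log2), with dim arrays open. The mitosis curve lies to the right of the others, and its YK-S arrays, at 0.061 to 0.232, lie above those of DMSO and YK-R, whereas the replication medians overlap.

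Genes of the ETS family, against which the compound was made, showed no common direction. Of 17 tested, 8 lay above 0 and the median was -0.00404; 3 separated the groups from above (3.76% of all features did) and 2 from below (5.06%). The median was -0.018 by the signal table's names, with 7 of 17 above 0. SPIB measured 8.06, 9.70 and 8.28 with YK-S and 8.03, 8.23 and 8.33 with DMSO. Replicate 2 alone stood out: the mean difference was 0.48 (SE 0.34, limma adjusted p = 1), and without that array it was -0.03. Under the signal table's names, which also place that array in YK-S, it was 0.76. SPI1, the related factor PU.1, was at 6.96, 7.10 and 6.96 against 6.81, 6.83 and 6.74, a difference of 0.21 without overlap, which was 0.12 by the signal table's names and 0.09 on its other probe. ELF2 was lower without overlap on the probe used, at -0.18, but at 0.10 by the signal table's names, and further probes gave 0.12 and -0.02. IRF4, the partner of SPIB, measured 8.91, 9.86 and 9.08 against 8.88, 8.94 and 8.88, a difference of 0.39 that was 0.10 without replicate 2 and 0.37 by the signal table's names.

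MYC, the growth-promoting transcription factor, was lower on every YK-S array, at 7.21, 7.26 and 7.36 against 7.42, 7.76 and 7.47. The difference was -0.27 (SE 0.14, limma adjusted p = 1), it was -0.26 without replicate 2, and a further probe of the gene gave -0.12. The signal table's names gave -0.21, with overlap. The 10 members of MYC and its MAX network had a median of -0.0803, with 2 above 0, and of -0.0367 without replicate 2. That shift was not particular to YK-S: YK-R minus DMSO had a median of -0.0656, also with 2 above 0, and YK-S minus YK-R one of -0.00351. DHX9, an RNA helicase reported as a partner of ETS fusion proteins, was at 0.14 (SE 0.31) with overlap, and its other probes ran from -0.07 to 0.07.

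Among the B cell receptor and identity genes 23 of 32 lay above 0, and the median was 0.0653, or 0.064 without replicate 2 and 0.0128 (16 of 31 above 0) by the signal table's names. CD74, the invariant chain of HLA class II, measured 10.51, 11.30 and 10.69 with YK-S and 10.32, 10.36 and 10.46 with DMSO, a difference of 0.45 (SE 0.21) without overlap. It was 0.22 without replicate 2 and 0.47, with overlap, under the signal table's names. YK-R minus DMSO was 0.37 for CD74, and at 4 h YK-S minus DMSO was -0.87 (limma adjusted p = 0.114). CD37, a tetraspanin, and IKZF3, a B cell transcription factor, were at 0.40 and 0.51, the latter with overlap, and at 0.21 and, without overlap, 0.50 by the signal table's names. Their other probes gave 0.14 and 0.25. The list of 17 HLA class II genes and regulators, CD74 included, had 6 above 0 and a median of -0.0542, or -0.0489 by the signal table's names. Beside CD74, RFX5, a regulator of these genes, was at 0.23 (0.03 on its other probe) and the pseudogene HLA-DRB6 at 0.20 (0.09 on its other probe). The 21 genes of ABC-type lymphoma had a median of 0.0213 with 12 above 0, and the 32 NF-kB subunits and targets a median of 0.00473 with 17 above 0. These medians were 0.052 and -0.0666 by the signal table's names. NFKBIA, the NF-kB inhibitor, was at -0.33 with overlap, and at -0.46 by the signal table's names.

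The remaining named genes with higher values were NPIPB5 (0.79), ZNF69 (0.71), INO80E (0.57) and ZNF549 (0.56). Each owed most of its difference to YK-S replicate 2. NPIPB5, a member of a multicopy family whose copies a probe may not tell apart, measured 9.0, 10.38 and 8.95 with YK-S and 8.68, 8.63 and 8.64 with DMSO. ZNF69, a zinc finger gene, measured 9.5, 11.01 and 9.71 against 9.34, 9.35 and 9.41. Without replicate 2 NPIPB5 was at 0.32, ZNF69 and INO80E, a subunit of the INO80 chromatin remodeller, at 0.24 and ZNF549 at 0.17. Further probes gave -0.06 for ZNF69 and -0.01 for ZNF549, so probes of these genes disagreed. Under the signal table's names the differences were 0.54 for NPIPB5, 0.31 for ZNF69, 0.30 for INO80E and 0.17 for ZNF549, with overlap in each.

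The lower named genes beside GINS2 had differences of -0.50 to -0.38, and in all 11 the lowest of the 6 arrays was YK-S replicate 2. RXRB, a nuclear receptor, measured 8.50, 7.45 and 8.28 with YK-S and 8.62, 8.60 and 8.52 with DMSO, a difference of -0.50 that was -0.19 without replicate 2. PRMT3, an arginine methyltransferase of ribosomal protein uS5, measured 9.56, 9.29 and 9.41 against 9.68, 9.96 and 9.81 and moved least of the 11 on that omission, from -0.40 to -0.33. AARS1, the alanyl-tRNA synthetase, measured 10.68, 10.25 and 10.78 against 10.83, 10.97 and 11.14, a difference of -0.41. The sign turned by the signal table's names, to 0.17 for PRMT3 and 0.09 for AARS1. CENPV was at -0.45, PNRC2, a factor of mRNA decay, at -0.40 and EZR, which links membrane and actin, at -0.38; further probes gave -0.05 for CENPV, 0.10 for PNRC2 and -0.20 for EZR. HPS6 and FGD3 were both at -0.40, SLC25A28, a mitochondrial iron carrier, was at -0.42, and LILRB1 and AKR1D1 were at -0.45 and -0.43. All of these 8 and RXRB lay below 0 by the signal table's names too, between -0.37 and -0.11. Both tables place replicate 2, the lowest array, in YK-S, so the shared sign is not independent of it. A further LILRB1 probe did not exceed background on any of the 6 arrays, and a further AKR1D1 probe, above background on 3 of the 6, gave -0.05. None of the 12 lower and 12 higher named genes separated the groups under the signal table's names.

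Most other lists had medians near that of all features, but some short ones did not. The list of DHX9 and FET family partners had 7 of 9 above 0 and a median of 0.122, close to the 0.126 of mitosis. It was -0.0233 by the signal table's names. The B cell markers had 5 of 6 above 0 and a median of 0.172, which was 0.0771 without replicate 2 and 0.132 by the signal table's names. The NRF2 oxidative stress genes had 15 of 22 above 0 and a median of 0.0624, which was 0.0117 without replicate 2 and 0.0546 by the signal table's names. For YK-R minus DMSO their median was larger, at 0.0906, and for YK-S minus YK-R it was -0.0538. Among the tubulin genes 9 of 15 lay above 0, with a median of 0.0525, with 3 separating the groups from above (3.76% of all features did) and none from below (5.06%). When the signal table's names were used 6 of 16 lay above 0, the median was -0.02, and 1 separated the groups from above (4.75%) and 2 from below (7.28%). TUBB2A, a beta tubulin, was at 0.52 (7.64, 8.36 and 7.54 against 7.36, 7.47 and 7.15) and TUBA1C, an alpha tubulin, at 0.24 (-0.10 on its other probe), and with the other names they were at 0.29 and -0.02. Stress response genes had 15 of 45 above 0 and a median of -0.0441, which was 0.0249 without replicate 2 and -0.108 by the signal table's names. HYOU1, a chaperone of the endoplasmic reticulum, was at 0.38 without overlap (0.26 on its other probe) and at 0.52 by the signal table's names. HLA class I genes had a median of 0.0933 with 13 of 17 above 0, and for YK-R minus DMSO it was 0.111. The HLA class I median was -0.0395 by the signal table's names, with 8 of 18 above 0. The spliceosome list had a median of -0.0059, or 0.0431 by the signal table's names, with HNRNPU, which organizes nuclear RNA, at 0.72 and values of 8.17, 9.98 and 8.74 against 8.12, 8.13 and 8.49. HNRNPU was at 0.32 by the signal table's names, and its other probe, above background on all 6 arrays, gave -0.07.

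**Figure D5:**
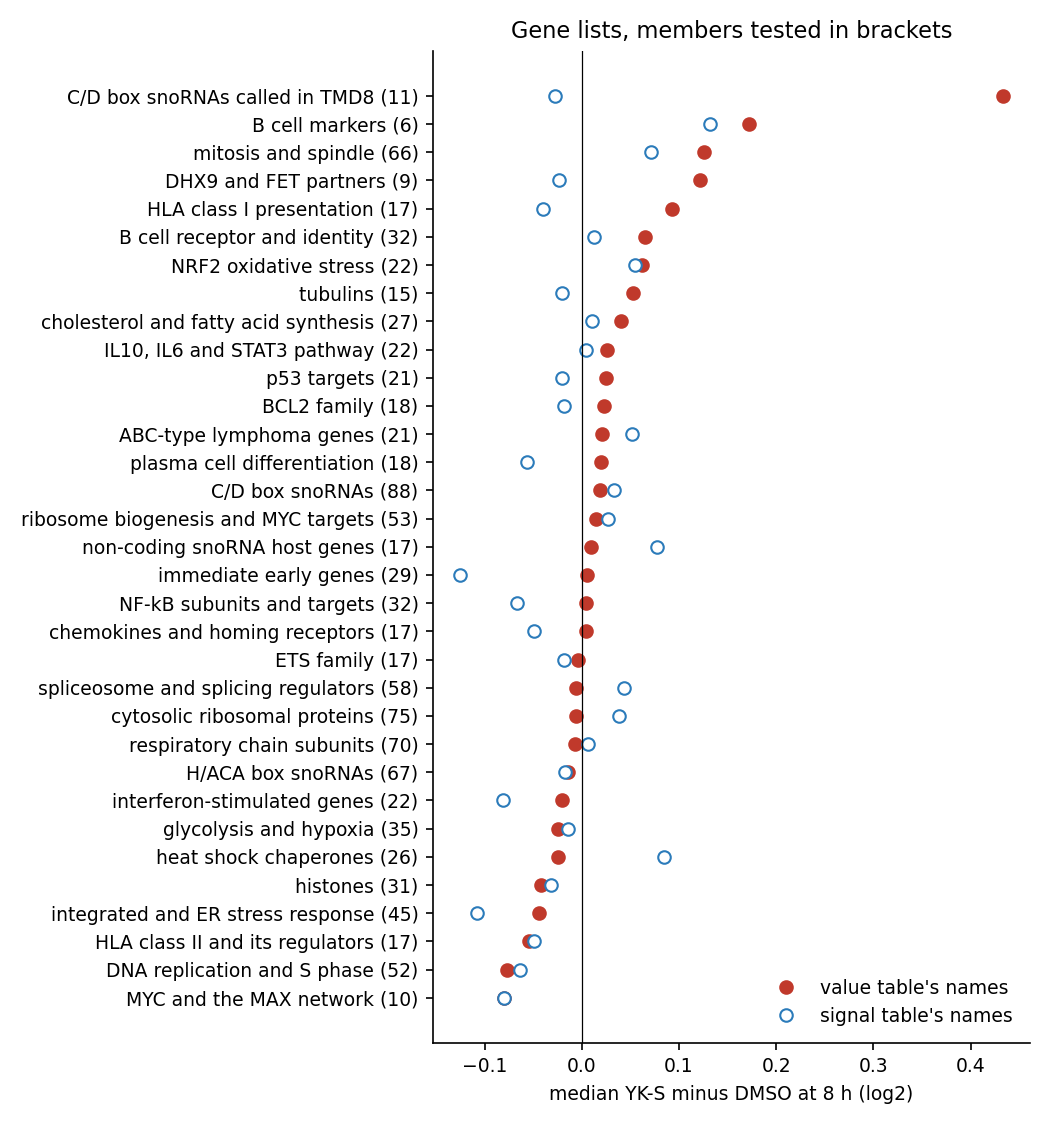
Median log2 difference, YK-S minus DMSO at 8 h, of each list with at least 5 members tested (number in brackets), by the log2 table's names (filled) and the signal table's names (open). The TMD8 snoRNA list lies farthest right, at 0.433, and at -0.0278 under the signal table's names; the mitosis list is at 0.126 and 0.0714.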

How the data were processed

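Illumina human bead arrays (47231 probes) were read with GenomeStudio, per the submitters' processing notes, with version and settings not given in the sources used here. The deposited signal table holds bead intensity on a linear scale, with no normalization that its values show. The deposited value table is on a log2 scale, quantile normalized within each line as its values show; the log base was read from the values. Both were used by their own column names.

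Background was the mode of the log2 values, with its spread from the values below the mode (limit 6.44 at a detection p of 0.05). A probe was kept if above background on all 3 arrays of at least 1 of the 6 U2932 groups, and the brightest kept probe stood for a gene. Group means were fitted to 18 U2932 arrays (12 residual degrees of freedom) with limma 3.58.1 in R 4.3.3, two-sided, with Benjamini-Hochberg adjustment over all 16944 features. The number of arrays limits the precision. With 3 arrays against 3 an exact permutation test cannot go below p = 0.10, so none was run. Of the probes, 30113 had 1 gene symbol, 8 several and 17110 none; 30074 symbols matched RefSeq. Host genes are those whose RefSeq span holds the snoRNA. A mean signal under 200 marked an array as dim.

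Named genes were the 12 largest increases and 12 largest decreases with an unadjusted p under 0.05 and no overlap of groups, up to 4 members of lowest p in each list, and SPIB, IRF4, MYC and DHX9; other members were chosen after their values were seen. The comparison, the 36 gene lists and the TMD8 snoRNA list were chosen with earlier results of these data known. Alternatives were single arrays left out, dim arrays left out, array weights, other filters and scalings, and the signal table's names with 3 scalings.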

Additional observations from a re-analysis of the deposited data

How the results depend on the processing

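With 3 arrays a group, 1 array can decide a value. No setting gave a call in YK-S minus DMSO except the omission of YK-S replicate 1, which gave 2, SNORD18A (0.99) and SNORD74, so single omissions ranged from 0 to 2; YK-S minus YK-R likewise ranged from 0 to 2. The count at an unadjusted p under 0.05 was 160, 61 without YK-S replicate 2, 619 without YK-S replicate 1, 785 with array weights and 897 without dim arrays (1058 expected by chance). The difference of effects between times was called for 200 features without dim arrays and for 1028 with array weights, against 0 otherwise. Without dim arrays only replicate 1 of YK-S and replicate 1 of DMSO remained at 4 h, so the effect at 4 h was unreplicated there. The calls of that setting therefore cannot decide whether the effects differ between times, and no conclusion is drawn from them. No paired analysis was possible because the labels give no replicate numbers that groups share.

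Omitting single arrays moved the list medians from 0.0917 to 0.185 for mitosis, from -0.0905 to -0.00349 for DNA replication, from -0.00276 to 0.0597 for C/D box snoRNAs and from 0.245 to 0.538 for the TMD8 snoRNA list. DNA replication was at -0.00349 without dim arrays, -0.0175 with array weights and -0.224 under the signal table's names with median scaling. The TMD8 list was at 0.76 over the 5 members above background on all 18 arrays. Under the signal table's names with quantile, normexp with quantile, and median scaling, the mitosis list was at 0.0714, 0.0743 and -0.0403 and the TMD8 list at -0.0278, -0.0342 and -0.112. Median scaling put the median of all features at -0.0598.

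Signs turned mostly with the names. With quantile, normexp and median scaling in that order, SNORD46 was at -0.28, -0.31 and -0.54, SNORD13 at -0.15, -0.16 and -0.34, SNORD18A at -0.13, -0.14 and -0.28, SNORA63 at -0.24, -0.25 and -0.42, SNORD21 at -0.12, -0.14 and -0.27, SNORD71 at -0.02, -0.03 and -0.13, SNORD117 at -0.03, -0.04 and -0.06, SNORD59B at -0.03, -0.03 and -0.09 and SNORD35A at -0.04, -0.05 and -0.14. AARS1 was at 0.09 and 0.09 and PRMT3 at 0.17 and 0.18 with the first 2. Only median scaling turned SNORD87 (-0.07), SNORA4 (-0.12), SNORD83B (-0.01), DHX9 (-0.08) and PRC1 (-0.15). SPIB was at -0.03 without YK-S replicate 2 and without dim arrays, and single omissions ranged from -0.03 to 0.79. The causes were not tested.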

Other observations

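RNA18SN5, the probe named for the 18S ribosomal RNA, which exists in many gene copies, had the lowest difference of all features, chosen after its values were seen. It measured 8.48, 7.11 and 7.87 on the YK-S arrays at 8 h and 8.86, 9.0 and 8.36 on the DMSO arrays. The groups overlapped, and the difference was -0.92 (SE 0.61, limma adjusted p = 1). By the signal table's names it was -0.07, at 4 h YK-S minus DMSO was -1.07, and in TMD8 YK-S minus YK-R at 8 h was 0.47.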
